A study of Mus musculus with 12 samples.

Results

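The Slc25a genes encode the mitochondrial solute carriers, and this account follows their messenger RNAs in vitrified and fresh mouse ovarian follicles. Members were taken by symbol alone, as every gene called Slc25a with a number and without the pseudogene mark. That rule found 35 members among the 11806 rows of the authors' deposited table, and 34 of the 35 carry an adjusted p. GENCODE release 21 of the mouse annotates 47 protein-coding genes of this name, so 12 were not analysed here.

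There were 6 vitrified and 6 fresh follicles, each follicle a library of its own. All came from CD-1 mice, an outbred stock, at 16 days of age. Per the labels, both groups were then grown for 8 days in 0.5% alginate with 10 mIU/mL recombinant follicle-stimulating hormone and harvested singly. Vitrified follicles had been cryopreserved by cooling into a glass without ice crystals, and the cryoprotectants used are a detail not given in the sources used here. In its design, the study asked how closely the transcriptome of vitrified follicles matched that of fresh ones. The labels do not say which follicles came from the same animal, so p-values may be too small where follicles of a group share an animal. They may be too large where the same animals gave follicles to both groups, if the test left this out.

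Carriers of this family sit in the inner mitochondrial membrane, with few exceptions, and exchange nucleotides, phosphate, amino acids, carboxylic acids, cofactors and iron between cytosol and matrix. They are made in the cytosol and threaded in by small TIM chaperones and the TIM22 complex. In the follicle, granulosa cells surround the oocyte and supply it with pyruvate and other metabolites, and both cell types rely on mitochondria. The first step of steroid synthesis also takes place in mitochondria. Each library holds the whole follicle, so fewer cells of a type and less RNA per cell cannot be told apart.

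The family is held together by a short signature, proline, any residue, an acidic residue, any pair of residues and a basic residue. It is repeated once in each of the domains of a typical carrier. In the coding sequences of GENCODE release 21, 20 of the 35 members had this exact signature 3 times, 8 had it 2 times, 5 had it 1 time and 2, Slc25a46 and Slc25a51, had it 0 times. Proteins ran from 274 residues in Slc25a26 to 677 in Slc25a12, with a median of 320. The first copy is shown for the 5 members of highest level, for Slc25a33, the member with the lowest p, and for its paralog Slc25a36. Capitals mark the codons of the proline, the acidic and the basic residue, written 5′ to 3′ on the coding strand.
Slc25a3: CCTctaGATctcattAAA
Slc25a5: CCCatcGAGagggtcAAG
Slc25a4: CCGatcGAGagggtcAAA
Slc25a39: CCCctgGATgtggtgAAG
Slc25a1: CCGaccGAAtacgtgAAG
Slc25a33: CCActaGAAgtcattAAG
Slc25a36: CCActgGAAgttgtcAAA

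Among the 35 members taken by symbol, levels were led by 5 carriers of basic mitochondrial work. Ucp2, of the same protein family under another symbol, had a higher total (29571) and is described further below. The authors' deposited table gives a single total per gene over all 12 libraries and no value per follicle, so levels are those of both groups together and cannot be set out by sample. The phosphate carrier gene Slc25a3 had a total of 18054 in the authors' deposited table, followed by Slc25a39, whose human protein is needed for glutathione import, at 6466. The adenine nucleotide translocase genes Slc25a5 (ANT2) and Slc25a4 (ANT1) had totals of 5392 and 4728, and the citrate carrier gene Slc25a1 5264, in the authors' deposited table. These 5 genes held 74.6% of the summed totals of the 35 members.

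Between genes, levels were compared per kilobase of the transcript with the longest coding sequence. On that scale Slc25a3 stood first with a total of 13463 per kilobase, then Slc25a5 with 4349, Slc25a39 with 3837, Slc25a1 with 3160 and Slc25a4 with 2456. The median over the 35 members was 167 per kilobase and the lowest was 24.3, in the folate and FAD carrier gene Slc25a32. The lowest place depended on the length used, since Slc25a40 was lowest per kilobase of all annotated exons (8.23) and Slc25a14 per kilobase of coding sequence (61.4). The same 5 genes led with each of 3 choices of length, but per kilobase of all annotated exons Slc25a5 (3276) and Slc25a3 (3253) were level. The next gene, the oxoglutarate carrier gene Slc25a11, reached 653 per kilobase. Among paralogs the order could also turn on the length. The aspartate/glutamate carrier gene Slc25a13 stood at 237 and Slc25a12 at 134 per kilobase of transcript, but at 358 and 419 per kilobase of coding sequence. The mitoferrin genes Slc25a28 and Slc25a37, which bring iron into mitochondria, stood at 171 each per kilobase of transcript, but at 240 and 700.0 per kilobase of coding sequence.

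**Figure D1:**
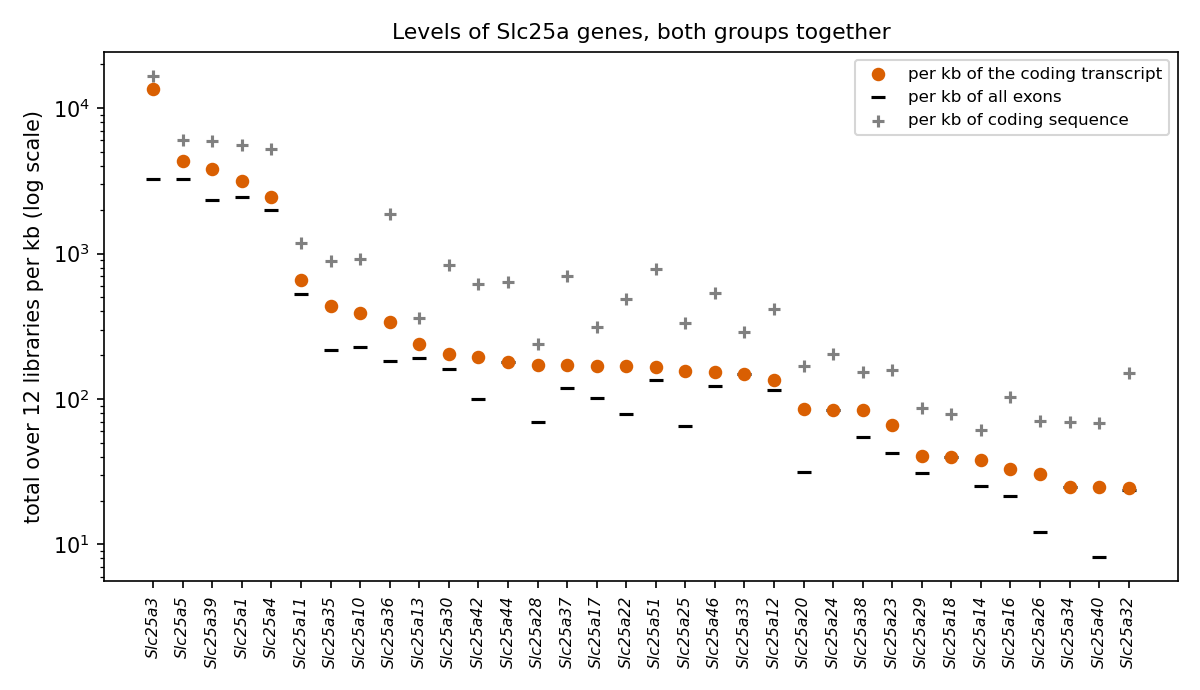
Levels of 34 of the 35 Slc25a genes, both groups together. The vertical axis (log scale) gives the total over the 12 libraries per kilobase of the coding transcript (dots), of all annotated exons (bars) and of the coding sequence (crosses), and genes are ordered by the first. The 5 genes on the left lie at 2456 or more per kilobase of transcript, and the next gene at 653.

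No Slc25a gene passed the threshold of the authors' test between vitrified and fresh follicles. At an adjusted p of 0.05 or less, 0 of 34 tested members were called in the authors' deposited table, where 58 of 10963 tested genes, 0.529%, were called. At an unadjusted p under 0.05 the count was 1 member, or 2.94%, against 770 of all tested genes, or 7.02%. A fold change of at least 1.5 in either direction was found for 2 tested members, or 5.88%, against 9.26% of all tested genes in the authors' deposited table, and 0 members reached 2-fold. Signs were evenly split, with 17 members higher and 17 lower in vitrified follicles, or 50% lower against 53.2% of all tested genes. The median log2 fold change was 0.01 over the members and -0.02 over all tested genes, and the members' median was -0.04 over the 29 members with at most 10% of their sequence windows shared with another gene, so its sign depends on which members are counted.

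How much change the data allow was read from 95% intervals, derived for each gene from its deposited fold change and p. For 27 of the 34 members, 79.4%, the interval lay wholly within 2-fold, against 69.1% of all tested genes. That share depends on totals. All 19 members with a total of 300 or more were within 2-fold, against 90.1% of all tested genes at such totals. Of the 15 members below that total 8 were, 53.3%, against 47.3% of all tested genes there. The 7 members whose interval passed 2-fold were Slc25a14, Slc25a16, Slc25a18, Slc25a23, Slc25a33, Slc25a34 and Slc25a40, and for these the data allow a difference of more than 2-fold. The median derived standard error was 0.26 log2 units over the members and 0.29 over all tested genes.

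**Figure D2:**
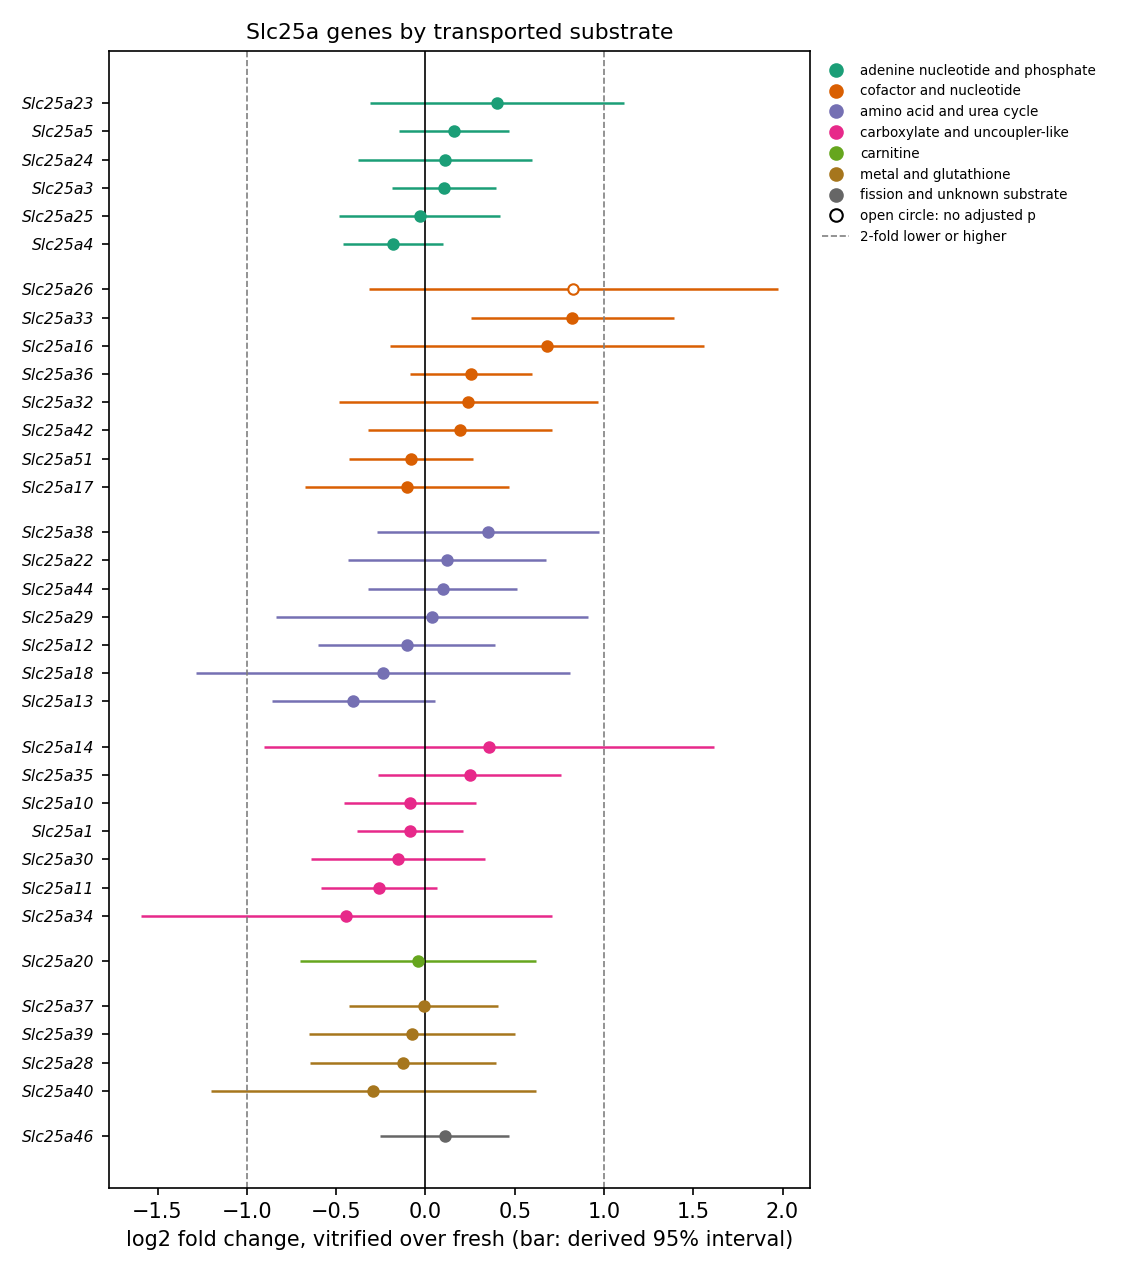
Log2 fold change, vitrified over fresh, of 34 of the 35 Slc25a genes, grouped by transported substrate. Dots are the values of the authors' deposited table, bars are derived 95% intervals, dashed lines mark 2-fold, and the open circle is Slc25a26, which has no adjusted p. The interval of Slc25a33 alone lies on one side of 0, from 0.25 to 1.39.

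Slc25a33 had the lowest p of the family. It encodes a pyrimidine nucleotide carrier (PNC1 in human cells), which brings nucleotides for mitochondrial DNA and RNA synthesis into the matrix, and lies on the minus strand of chromosome 4 from 149744036 to 149774277 in GRCm38. Its total was 279 in the authors' deposited table, and it was 1.77-fold higher in vitrified follicles, a log2 fold change of 0.82 (95% interval 0.25 to 1.39). With an unadjusted p of 0.00459 and an adjusted p of 0.277, both from the authors' deposited table, it was not called. The antisense gene Gm13068 covers 14.9% of its exon bases, and Gm13068 was not analysed here. Whether counting used strand is one more detail not given in the sources used here, so reads of the 2 genes in that stretch cannot be told apart.

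The other pyrimidine nucleotide carrier gene, Slc25a36 (PNC2), stood at a log2 fold change of 0.26 (-0.09 to 0.60, p = 0.141, adjusted p = 0.892) on a total of 1761, per the authors' deposited table. Coding sequences of Slc25a33 and Slc25a36 were 62.4% identical, and 15.3% of the windows of Slc25a36 occur in another gene, the pseudogene Gm13217. The carrier with the next p after Slc25a33, and so just outside 0.05, was Slc25a13 at 0.0837 in the authors' deposited table.

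Carriers of cofactors and nucleotides mostly had higher values in vitrified follicles. Of 8 tested genes 6 had higher and 2 lower values, or 25% lower against 53.2% of all tested genes. The median was 0.22 in log2 fold change, beside -0.02 over all tested genes, and 0 were called. Whether the group differs from all tested genes was not tested. Slc25a16, linked to the CoA supply of mitochondria, stood at a log2 fold change of 0.68 (-0.20 to 1.56, p = 0.129, adjusted p = 0.877) on a total of only 103, per the authors' deposited table. Slc25a42, whose human protein carries CoA, stood at 0.19 and Slc25a32 at 0.24 in the authors' deposited table. Slc25a51, the NAD carrier of human mitochondria, stood at -0.08 and Slc25a17, a carrier of peroxisomes, at -0.10 in the authors' deposited table. Outside these 8, the S-adenosylmethionine carrier gene Slc25a26, has no adjusted p and stood at 0.83 (-0.32 to 1.98, p = 0.157) on a total of 58.4, per the authors' deposited table.

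Among carriers of adenine nucleotides and phosphate, 4 of 6 tested genes had higher and 2 lower values, and 0 were called. Slc25a3 was 1.07-fold higher in vitrified follicles (log2 fold change 0.10, p = 0.492, adjusted p = 0.999), per the authors' deposited table. Its interval allowed at most 1.32-fold higher and 1.14-fold lower. The ANT pair had opposite signs, with Slc25a5 at a log2 fold change of 0.16 (-0.15 to 0.47, p = 0.303, adjusted p = 0.996) and Slc25a4 at -0.18 (-0.46 to 0.10, p = 0.208, adjusted p = 0.945), per the authors' deposited table. Their coding sequences were 77.5% identical, the highest of 12 paralog pairs aligned, and 39.1% of the windows of Slc25a5 occur in other genes, mostly processed pseudogenes, against 0% for Slc25a4. The count of Slc25a5 is therefore uncertain, and the difference between the paralogs was not tested. Slc25a23, a calcium-regulated ATP-Mg/phosphate carrier gene, stood at 0.40 (-0.31 to 1.11, p = 0.267, adjusted p = 0.982) on a total of 223, per the authors' deposited table. Its paralogs Slc25a24 and Slc25a25 stood at 0.11 and -0.03 in the authors' deposited table.

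Amino acid carriers were mixed in sign, with 4 of 7 tested genes higher, 3 lower, a median of 0.04 in log2 fold change and 0 called. The aspartate/glutamate carrier gene Slc25a13 (citrin), part of the malate-aspartate shuttle that moves reducing equivalents into mitochondria, had the lowest p of the members with lower values. It lies on chromosome 6 from 6041218 to 6217173 in GRCm38, and stood at a log2 fold change of -0.40 (-0.86 to 0.05, p = 0.0837, adjusted p = 0.815) on a total of 727, per the authors' deposited table. Its paralog Slc25a12 (aralar) stood at -0.11 (-0.60 to 0.39), per the authors' deposited table. The glycine carrier gene Slc25a38, needed for heme synthesis, stood at 0.35 (-0.27 to 0.97), per the authors' deposited table. The glutamate carrier genes Slc25a22 and Slc25a18 stood at 0.12 and -0.24, the branched-chain amino acid carrier gene Slc25a44 at 0.10 and the basic amino acid carrier gene Slc25a29 at 0.04 in the authors' deposited table.

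Carboxylate carriers and the genes nearest to the uncoupling proteins had lower values in 5 of 7 tested cases, with a median of -0.09 in log2 fold change and 0 called. That is 71.4% lower, against 53.2% of all tested genes, and the difference was not tested. Slc25a11, which exchanges oxoglutarate for malate in the malate-aspartate shuttle, stood at a log2 fold change of -0.26 (-0.59 to 0.06, p = 0.113) on a total of 1118, per the authors' deposited table. Of its exon bases, 8.92% are shared with Rnf167, which stood at 0.07 in the authors' deposited table. Slc25a1, which exports citrate for lipid synthesis, was at -0.09 (-0.38 to 0.21, p = 0.566, adjusted p = 0.999), per the authors' deposited table. The dicarboxylate carrier gene Slc25a10 was likewise at -0.09 (-0.46 to 0.28), per the authors' deposited table. The uncoupler-like genes Slc25a30 and Slc25a14 stood at -0.15 and 0.36 in the authors' deposited table. Slc25a34 stood at -0.44 (-1.59 to 0.71, p = 0.451, adjusted p = 0.999) on a total of 66.4, per the authors' deposited table, the lowest fold change of the tested members. Its paralog Slc25a35 stood at 0.25 (-0.26 to 0.76), per the authors' deposited table. Of the exon bases of Slc25a35, 31.3% lie under the neighbouring gene Rangrf, which was not analysed here.

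Carriers of iron and glutathione all had lower values, 4 of 4, with a median of -0.10 in log2 fold change and 0 called. Of all tested genes, 53.2% had lower values. Slc25a39 stood at -0.08 (-0.65 to 0.50, p = 0.795, adjusted p = 0.999), per the authors' deposited table. Its paralog Slc25a40 stood at -0.29 (-1.20 to 0.62, p = 0.532, adjusted p = 0.999) on a total of 69.0, per the authors' deposited table. The mitoferrin genes Slc25a28 and Slc25a37 stood at -0.13 and -0.01 in the authors' deposited table, and Slc25a37 turned to 0.01 when fold changes were centred on the median of all tested genes. The carnitine/acylcarnitine carrier gene Slc25a20, which passes fatty acids to beta-oxidation, was at -0.04 (-0.70 to 0.62), per the authors' deposited table. Slc25a46, an outer membrane protein that shapes mitochondria, was at 0.11 (-0.25 to 0.47), per the authors' deposited table.

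Signs were split between paralogs too. Of the 12 pairs of paralogs aligned, 6 had the same sign and 6 opposite signs, a description with no test. The pairs among Slc25a23, Slc25a24 and Slc25a25 share genes, so the 12 pairs are not independent. Slc25a28 and Slc25a37 had the same sign, but opposite signs (-0.10 and 0.01) when centred on the median of all tested genes. Identity of the coding sequences ran from 51.8% for Slc25a16 with Slc25a42 to 77.5% for the ANT pair. Windows shared with another gene exceeded 10% in 5 members, Slc25a5, Slc25a35, Slc25a36, Slc25a33 and Slc25a46, and 16 members shared 0.

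**Figure D3:**
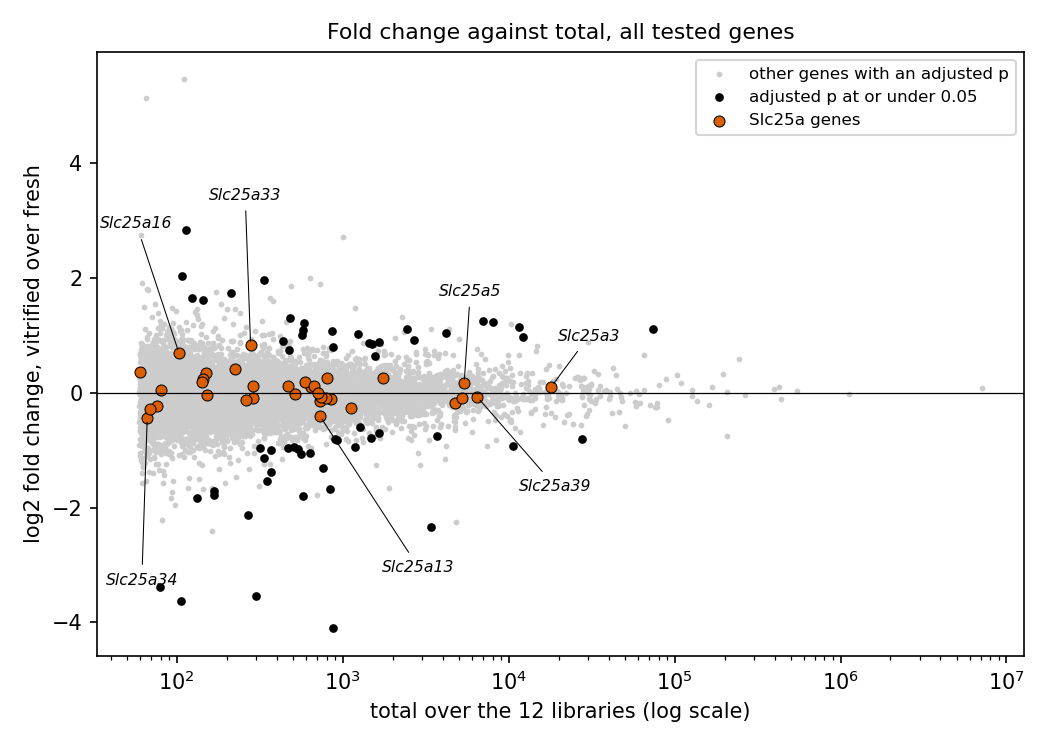
Log2 fold change, vitrified over fresh, against the total over the 12 libraries (log scale) for the 10963 genes with an adjusted p. Black dots are the 58 genes called at an adjusted p of 0.05 or less and orange dots are the 34 tested Slc25a genes. The 5 Slc25a genes of highest total lie between -0.18 and 0.16, and 0 of the orange dots are called.

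The windows upstream of the genes with the lowest p in each direction are printed to show which regulatory letters they hold. Sequences are from RefSeq on GRCm38.p6, cover the 250 bases before the start, and are written 5′ to 3′ on the strand of the gene, minus in both cases. The region of Slc25a33 is chr4:149774268-149774517 and that of Slc25a13 is chr6:6217174-6217423. Capitals mark the E-box CACGTG, which reads the same on both strands and contains the hypoxia-inducible factor core ACGTG once on each. The Slc25a33 gene of GENCODE starts a few bases further upstream, so the E-box at the end of this window falls within its first exon.
Slc25a33: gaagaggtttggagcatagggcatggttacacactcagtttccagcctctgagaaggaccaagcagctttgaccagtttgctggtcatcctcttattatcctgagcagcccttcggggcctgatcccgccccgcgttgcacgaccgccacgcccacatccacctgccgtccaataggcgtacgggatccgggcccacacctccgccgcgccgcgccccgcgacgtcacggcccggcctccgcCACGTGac
Slc25a13: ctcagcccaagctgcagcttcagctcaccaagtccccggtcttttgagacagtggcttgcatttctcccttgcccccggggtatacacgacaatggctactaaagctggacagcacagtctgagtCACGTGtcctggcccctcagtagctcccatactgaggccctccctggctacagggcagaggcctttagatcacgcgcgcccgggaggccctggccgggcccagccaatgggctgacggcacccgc

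Promoter windows, from 250 bases before to 50 after the start, were found for 27 of the 35 members. The E-box CACGTG occurred in 5 of these, 18.5%, against 12.4% of the 8527 table genes with such a window. The 5 were Slc25a33, Slc25a13, Slc25a36, Slc25a1 and Slc25a14, which had fold changes of either sign. The core ACGTG, which includes every E-box, occurred in 8 members, 29.6%, against 30.2%. The ETS motif CCGGAAG, read by GABP, was present in 6 members, 22.2%, against 21.7%, with both strands searched for each motif. The half-site GCGCATGC of NRF1 was found in 0 of the 27 windows, against 6.47% of table genes, the ERR half-site AAGGTCA in 1 (3.70% against 3.58%) and the YY1 motif AAGATGG in 1 (3.70% against 8.76%). These matches describe letters in the windows and not sites that are bound.

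Genes listed as neighbours, most of which work beside the carriers, were compared in the same way. Of 40 tested neighbours, 22 had higher and 18 lower values, and 0 were called in the authors' deposited table. Their median was 0.06 in log2 fold change, and 34 had an interval within 2-fold. The uncoupling protein gene Ucp2, which belongs to the same protein family under another symbol, had the highest total of the list, 29571, and stood at -0.38 (-0.79 to 0.04, p = 0.0787), per the authors' deposited table. At an unadjusted p under 0.05 there was 1 neighbour, 2.5%, against 7.02% of all tested genes. This was the calcium uniporter regulator gene Mcur1, at a log2 fold change of 0.53 (0.10 to 0.97, p = 0.0164, adjusted p = 0.488), per the authors' deposited table.

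Genes of carrier import mostly had higher values, 8 of 10, with a median of 0.27 in log2 fold change, 0 called and 0 with an unadjusted p under 0.05. That is 20% lower, against 53.2% of all tested genes, whose median was -0.02, and the difference was not tested. The lower genes were Timm29 at -0.11 (-0.49 to 0.26), on the highest total of the group (1454), and Timm13 at -0.06 (-0.51 to 0.39) on 418. The examples given for import, channels and pyruvate were chosen after their values were seen. The small TIM chaperone genes Timm9 and Timm10, whose products escort carriers across the space between the membranes, stood at 0.71 (-0.20 to 1.62) and 0.60 (-0.20 to 1.40) on totals of 79.2 and 84.7, per the authors' deposited table. The pore gene Timm22 was at 0.12 (-0.43 to 0.67), per the authors' deposited table. All 3 outer membrane channel genes had lower values, with Vdac1 at -0.23 (-0.47 to 0.02), Vdac2 at -0.13 and Vdac3 at -0.02, per the authors' deposited table, though Vdac3 changed sign when centred on the median of all tested genes. The pyruvate carrier genes Mpc1 and Mpc2 stood at 0.14 and 0.05 in the authors' deposited table. Counts are uncertain where sequence windows occur in other genes, which held for 42.4% of those of Mpc1 and 22.9% of those of Vdac3. Among the higher import genes, the share was 40% for Timm8a1, 32.4% for Timm10b and 12.6% for Agk. For Vdac2 it was 11.9%.

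Of 11 enzymes that share substrates with the carriers, 6 had higher and 5 lower values, log2 fold changes ran from -0.23 to 0.31, and 0 were called. The transaminase gene Got1 had the highest of these values and the lowest p, at 0.31 (-0.06 to 0.68, p = 0.0993), per the authors' deposited table, and was picked after its value was seen. Mdh2, Acly and Me1 are given for their high totals. In the malate-aspartate shuttle, the mitochondrial malate dehydrogenase gene Mdh2 stood at -0.06 (-0.31 to 0.19) on a total of 5140, per the authors' deposited table. On the citrate route, the ATP-citrate lyase gene Acly, with a total of 8626, was at -0.23 (-0.56 to 0.10), per the authors' deposited table. The malic enzyme gene Me1, with a total of 5447, was at 0.25 (-0.13 to 0.64), per the authors' deposited table. Of the windows of Me1, 35.7% occur in other genes, processed pseudogenes among them, so its count is uncertain. The same holds for Got2, one of the higher enzyme genes, with 32.3%. The intervals of all 11 enzyme genes, each with a total above 300, lay within 2-fold, against 90.1% of all tested genes with a total of 300 or more.

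**Figure D4:**
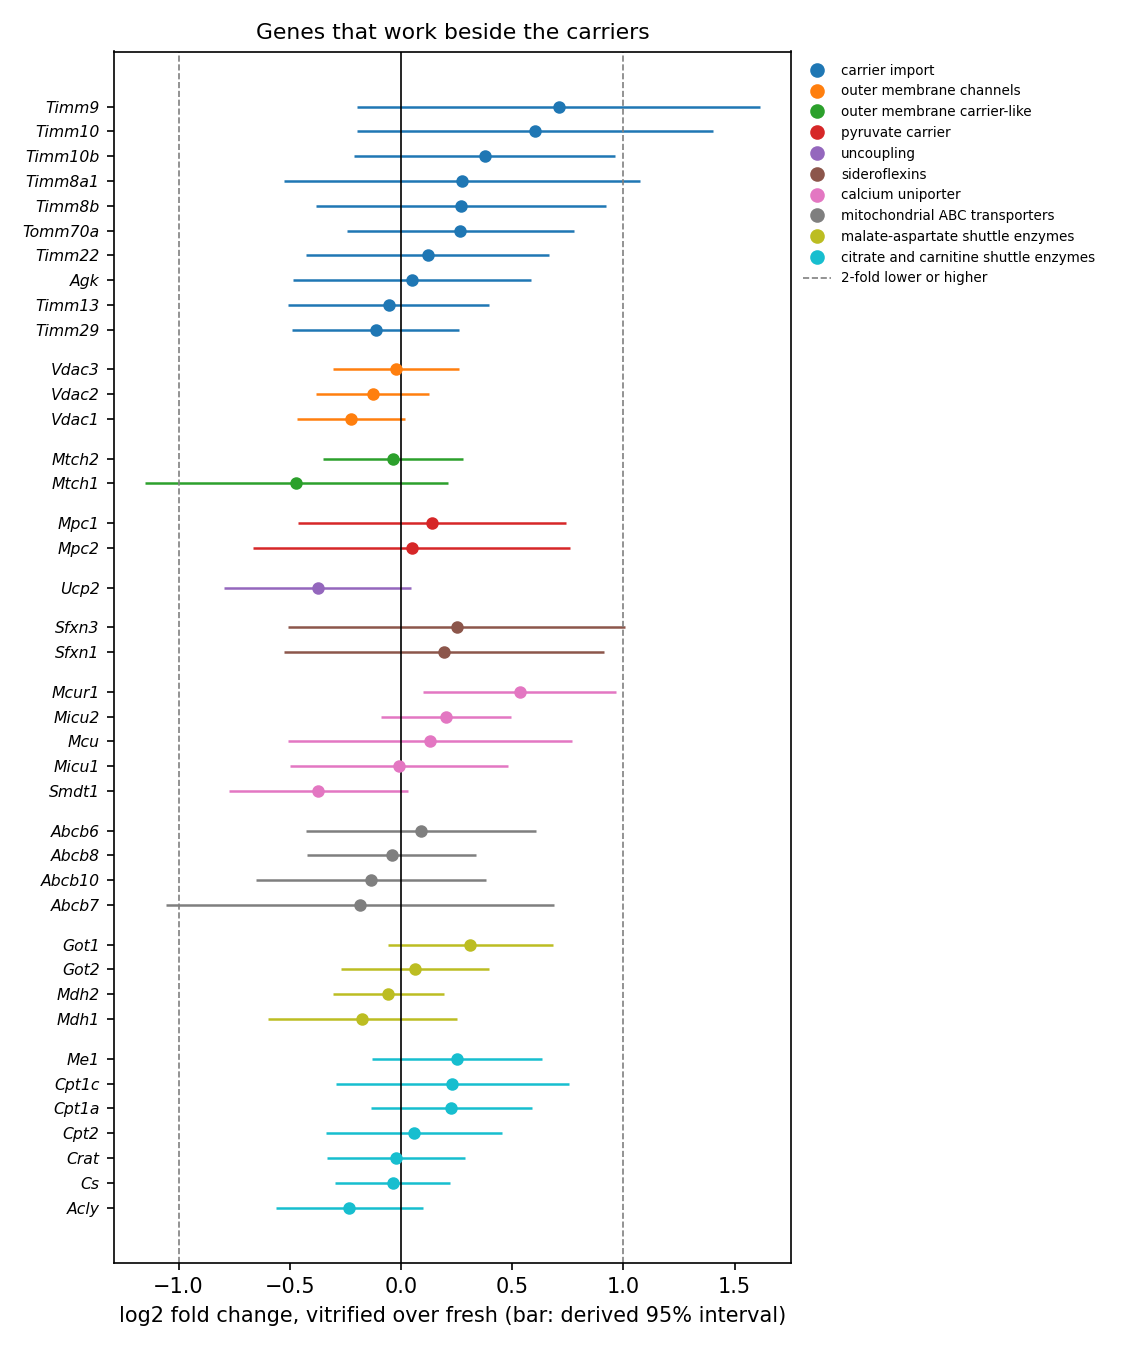
Log2 fold change, vitrified over fresh, of the 40 neighbour genes, grouped by function. Among them Ucp2 is of the same protein family as the carriers, and Mtch1 and Mtch2 are carrier-like. Dots are the values of the authors' deposited table, bars are derived 95% intervals, and dashed lines mark 2-fold. The interval of Mcur1 alone lies on one side of 0, from 0.10 to 0.97.

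Cell markers were read beside these values, and 0 of those with an adjusted p were called. Granulosa markers were found for 8 of 9 genes, with totals from 644 to 1121840 and 4 higher and 4 lower in the authors' deposited table. An unadjusted p under 0.05 was found for 2 of them, Fshr at 0.67 and Fst at -0.82, per the authors' deposited table. Of all tested genes, 7.02% had such a p. Oocyte markers were found for 8 of 10 genes, with totals from 53.7 to 369 in the authors' deposited table. All 8 had higher values in vitrified follicles (median 0.75 in log2 fold change), and 0 had an unadjusted p under 0.05. Theca markers had higher values for 6 of 7 genes, with totals from 382 to 435485 and a median of 1.19, per the authors' deposited table. The highest total was that of Hsd3b1, the only lower gene, at -0.11 (-0.47 to 0.25). Of the theca markers 3 had an unadjusted p under 0.05, Aldh1a1 at 1.19, Star at 1.60 and Insl3 at 2.70. Their totals were 10364, 382 and 1009, and the lowest adjusted p was 0.0976, for Aldh1a1. Cyp17a1 at 1.47, Cyp11a1 at 0.47 and Lhcgr at 0.08 had intervals that included 0. Of 4 endothelial markers 3 were found, with totals from 46.1 to 1912, all with lower values and a median of -1.42. Of these, 0 had an unadjusted p under 0.05, and the intervals of all 3 included 0. Of 4 immune markers 1 was found, Lyz2 at -1.05 (p = 0.0396, adjusted p = 0.669) in the authors' deposited table. Of 4 surface epithelium markers 2 were found with opposite signs, Lgr5 at -1.59 (-3.41 to 0.23) and Krt8 at 0.22 (-0.82 to 1.27) in the authors' deposited table. Lgr5, on a total of 47.8, has no adjusted p. The 2 red blood cell markers were not analysed here. The part of these cell types in the values of the carriers was not tested.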

How the data were processed

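Single-follicle RNA was sequenced with a Smart-seq protocol, per the labels. Tools named without version or role, per the submitters' processing notes, were DESeq2, Partek, HISAT2 and Bowtie2, with the mm10 build. The authors deposited a total per gene, a signal pooled over libraries that is not whole-numbered (0.237% whole within 0.001), together with a fold change and a log2 fold change. They also deposited an unadjusted p-value and a step-up adjusted p-value, per the file headers, missing for 843 genes with totals up to 59.4. Depth per follicle is unknown. The authors' own test, at an adjusted p of 0.05, was used because the table holds no value per follicle to refit. A p-value here sets the difference between the groups against the spread between follicles, which may share animals.

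Standard errors and 95% intervals were derived from the deposited log2 fold change and p, assuming a two-sided normal test, with Python 3.11.15 and scipy 1.17.1. The calculation was checked on data simulated under the same assumption, so whether the deposited p-values meet that assumption was not tested. Symbols were matched to GENCODE release 21 (GRCm38, the assembly of mm10), all 35 members by symbol. One member enters the counts and medians and is not reported here by name. The 50-base windows, every 25 bases, of each gene's transcripts were searched in all other genes on both strands. Members, role groups, neighbours and markers were chosen with earlier results of these data known. Any member could be named, in full for unadjusted p under 0.05, highest totals and extreme fold changes. Paralog pairs and motifs were chosen after the values were seen. Alternatives were a minimum total of 120, no filter, recomputed Benjamini-Hochberg values, a t distribution of 10 degrees of freedom, centring on the median, and few shared windows.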

Additional observations from a re-analysis of the deposited data

How the results depend on the processing

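The count of called Slc25a genes was 0 with a minimum total of 120, with no filter, with recomputed Benjamini-Hochberg values and with a t distribution of 10 degrees of freedom, and the same held for the neighbour genes. Of 31 recomputed values over 6 settings, 5 were log2 fold changes and 2 of these changed sign. Slc25a37 turned to 0.0112, against -0.0107, when centred on the median of all tested genes (-0.02). The median of the members turned to -0.04, against 0.01, over members with few shared windows. The other 26 values, which were p-values and counts, kept their side of the threshold or stayed within 1.5 times the count reported. The adjusted p of Slc25a33 ran from 0.242 with a minimum total of 120 to 0.9996 with the t distribution, under which 0 of all tested genes were called. Its unadjusted p was then 0.0177. The t distribution lowered the members with an interval within 2-fold to 24, against 27. No paired analysis was possible because the table holds no value per follicle, although both groups number their follicles 1 to 6. For the same reason no follicle could be left out. Low totals limit what can be seen: below a total of 300, 7 of 15 members had an interval that passed 2-fold.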
